A study of Mus musculus with 12 samples.

Results

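Distal alveolar type II (AT2) cells were compared between mice carrying 4T1 tumour cells and mice carrying CT26 tumour cells in the lung. The members were the 6 libraries whose labels give distal lung as the origin, 3 of each tumour model, of 12 libraries in all. The other 6 came from the metastatic niche of the same models and were used only to look up what the distal libraries showed. All mice were BALB/c, 6 to 8 weeks old, and had received 800000 labelled 4T1 cells (a mammary carcinoma line) or labelled CT26 cells (a colon carcinoma line) by tail vein 7 days earlier. Each library was made by Omni-ATAC from 50000 sorted AT2 cells of 5 pooled lungs, so a replicate is a pool and not a single mouse. No group without tumour cells was among the samples. The labels give no day or batch of preparation, so the tumour line and anything else that differed between the sets of libraries cannot be told apart.

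AT2 cells make and recycle pulmonary surfactant and are the progenitor cells that renew the alveolar epithelium. In ATAC the Tn5 transposase cuts DNA that is not wrapped in nucleosomes, and a peak caller lists the stretches where cuts pile up, mostly promoters and enhancers. The distal lung is the tissue away from the metastases, so the comparison asks whether AT2 cells that do not border a metastasis have a different set of open regions in the 2 tumour models. The data are lists of broad peaks without read counts. Read depth is not known for any library, so deeper sequencing and more open chromatin cannot be told apart as sources of a longer list.

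The AT2 marker loci were open in every distal library, though open loci of other cell types mean that peaks alone do not single out AT2 cells. All 24 loci of the AT2 identity list, each a gene with 10 kb on both sides, held a peak in all 6 libraries. Of the 175 regions at these loci, 87 were called in all 6 libraries. The 10 loci of the ciliated cell list also held a peak in every distal library. No peak in any distal library was found at 5 of 14 lymphoid, 4 of 14 macrophage and monocyte and 3 of 10 neutrophil loci, among them Ptprc (the pan-leukocyte phosphatase CD45), Cd3d, Cd8a, Ms4a1, Adgre1, Marco, Siglecf, Ccr2, S100a9, Camp and Ltf. The mesenchymal genes Col3a1, Dcn, Lum, Tcf21 and Postn and the basal cell keratins Krt5, Krt14 and Krt17 had none either. The other loci of these leukocyte lists held a peak in at least 1 library, and Spi1, Cd68, Cd4, Lck and Gata3 held one in all 6. The other mesenchymal and basal cell loci held a peak in at least 1 library too, and Col1a1, Foxf1, Trp63 and Krt15 held one in all 6. Of the 14 endothelial loci only Emcn had none, and Tek, Vwf, Kdr and Cldn5 held a peak in all 6.

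The CT26 distal lists were shorter than the 4T1 distal lists and a larger part of them lay at gene ends. The 4T1 distal libraries held 58237, 57646 and 56330 peaks on the autosomes and X, and the CT26 distal libraries 48263, 42067 and 50093. The groups did not overlap, and their means were 57404 and 46808 (exact permutation test, two-sided, p = 0.1, the smallest that 3 against 3 allows). Length under peaks was 45.0, 45.7 and 42.0 Mb in 4T1 and 33.8, 31.4 and 34.4 Mb in CT26 (exact permutation p = 0.1). Within 1 kb of the end of a protein-coding gene lay 27.4% of this length in 4T1 and 32.0% in CT26 (exact permutation p = 0.1). Peaks with a deposited -log10 q of at least 5 made up 66.2% of the 4T1 lists and 57.3% of the CT26 lists (exact permutation p = 0.1). The niche libraries differed between the models in the same way, with means of 65373 and 52655 peaks (exact permutation p = 0.1). Pairs of 4T1 distal libraries shared 72.4% to 73.5% of their joint covered length and pairs of CT26 distal libraries 66.5% to 67.4%. Pairs across the models shared 61.5% to 66.5%.

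**Figure D1:**
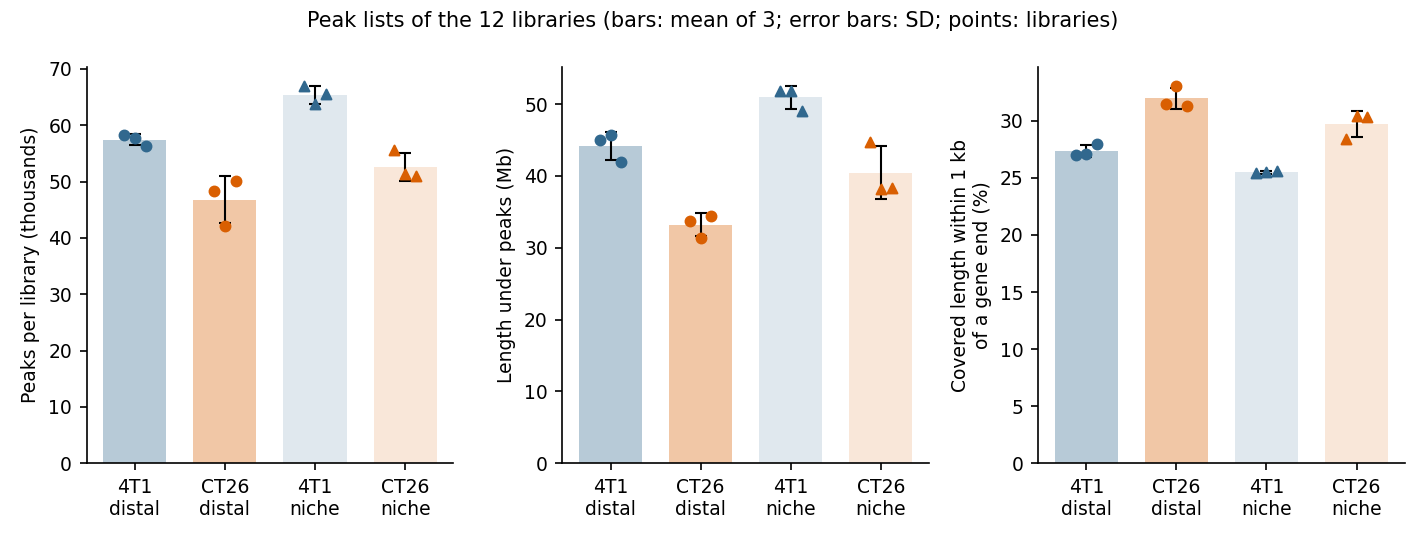
Number of peaks (in units of 1000), length under peaks (Mb) and percent of that length within 1 kb of a gene end for each library, with points for libraries, bars for the mean of 3 and error bars for the SD. The CT26 libraries lie below the 4T1 libraries of the same site in the left and middle panels and above them in the right panel.

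Merging the 6 distal lists gave 69839 regions, most of them common to both models. All 6 libraries called 36690 regions (52.5%). A further 2405 regions (3.44%) were called in all 3 4T1 distal libraries and in no CT26 distal library, and 38 (0.0544%) were called the other way round. These 2 sets are named 4T1-only and CT26-only regions here. When every list was shortened to its 42067 strongest peaks, the length of the shortest list, 594 and 325 regions fell in the 2 sets, a smaller imbalance. Most regions of both sets were weak calls. Ranked within each list by the -log10 p that the authors deposited, the median 4T1-only region lay at percentile 19.0, the median CT26-only region at 12.1 and the median region held by all 6 libraries at 63.3.

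**Figure D2:**
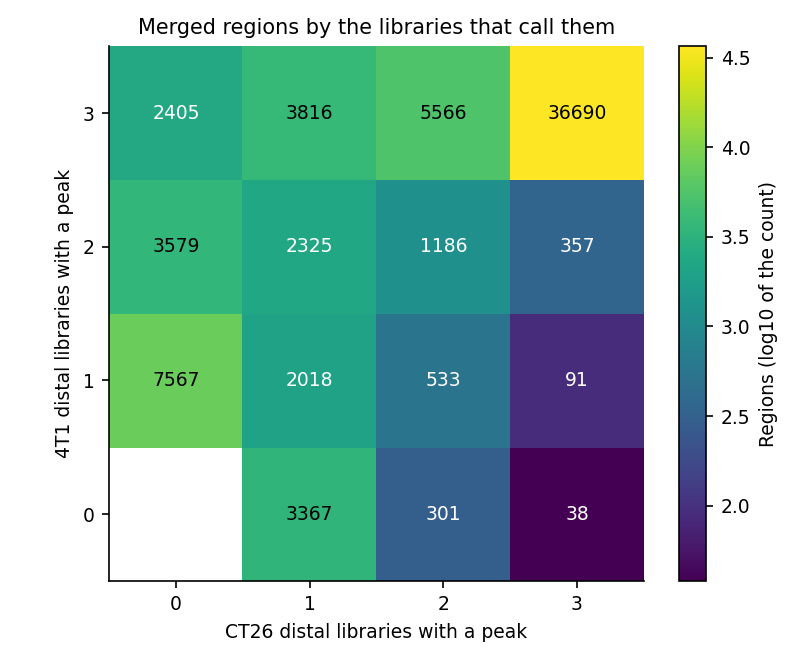
Number of merged regions by how many of the 3 CT26 distal libraries (horizontal) and of the 3 4T1 distal libraries (vertical) call them, with colour on a log10 scale. The 36690 regions held by all 6 libraries outnumber every other pattern, and the 2405 regions at the upper left face 38 at the lower right.

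The 4T1-only regions lay mostly inside genes and away from promoters. Their median length was 506 bp. They lay in a gene in 62.5% and within 1 kb of a gene end in 5.32%, against 47.2% and 20.1% of all regions. The 2858 other regions held by exactly 3 libraries came closer, with 51.9% and 7.63%. By rank the first was a region 6318 bp from Bag3, a chaperone partner induced by stress (chromosome 7, 128553299 to 128553629). It measured 304, 321 and 324 bp in the 4T1 distal libraries, and all 6 niche libraries held it as well. Others of the first 10 lay inside Tmem116, Cdc14a (a phosphatase), Gsn (the actin-severing protein gelsolin), Mbnl1 (a splicing regulator), Adssl1, Ldlrad3 and Gatad2a, and near Lpp and Ubash3b. The regions in Mbnl1 (chromosome 3, 60597034 to 60597272) and Ldlrad3 (chromosome 2, 102082834 to 102083152) and the region 1617 bp from Ubash3b (chromosome 9, 41163309 to 41163889) also had a peak in all 3 4T1 niche libraries and in no CT26 niche library.

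The niche libraries, which had no part in choosing the regions, kept the difference at a minority of them. Of the 2405 4T1-only regions, 1738 (72.3%) were held by all 3 4T1 niche libraries, against 75.5% of all regions. At least 1 CT26 niche library held 1902 of them (79.1%, against 82.8% of all regions), and all 3 held 626 (26.0%, against 62.0%). The pattern of all 3 4T1 niche libraries and no CT26 niche library occurred at 253 (10.5%), against 2.89% of all distal regions and 7.10% of the other regions held by exactly 3 libraries. Of the 38 CT26-only regions, 2 were held by all 3 CT26 niche libraries and no 4T1 niche library (5.26%, against 0.0687% of all regions). At least 1 CT26 niche library held 27 of the 38 (71.1%, against 82.8%), and no 4T1 niche library held 16 (42.1%, against 8.61%).

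**Figure D3:**
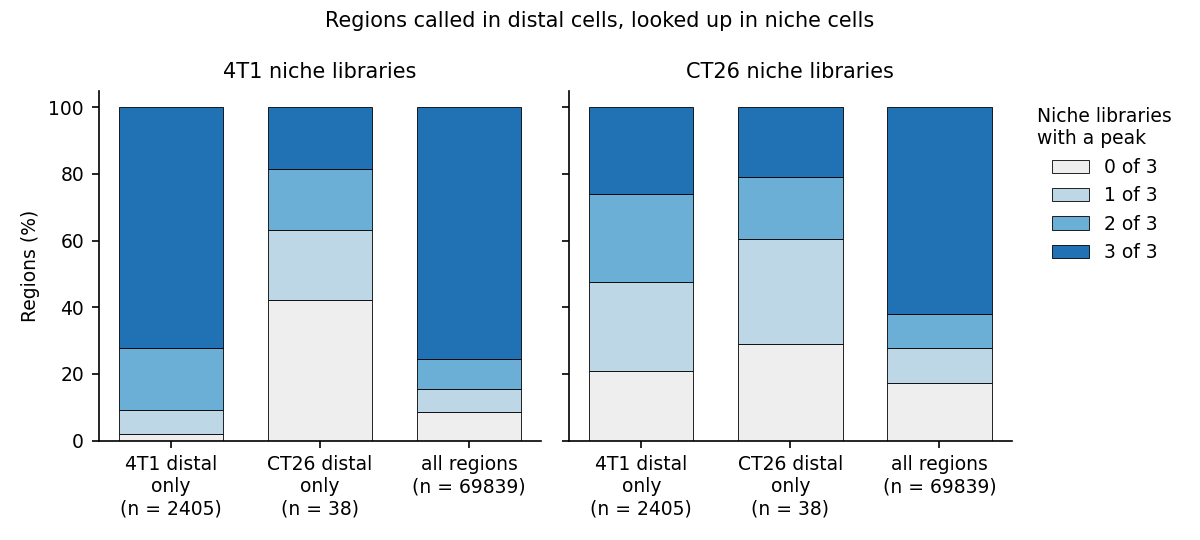
Percent of regions held by 0, 1, 2 or 3 niche libraries of the 4T1 model (left) and the CT26 model (right), for the 2405 4T1-only regions, the 38 CT26-only regions and all 69839 regions. Most 4T1-only regions are dark, held by all 3, in the 4T1 niche, and 26.0% are in the CT26 niche.

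Most CT26-only regions lay between genes, and 20 of the 38 sat in 6 short stretches of the genome. A stretch here is a run of CT26-only regions with gaps of at most 1.5 Mb, a description chosen after the regions were seen. The stretches hold 0.332% of all regions and 2 of the 4T1-only regions. On chromosome 8, 7 regions fell between 18740482 and 20814556, around Defb33, a beta-defensin gene, and Angpt2, a ligand of the endothelial receptor Tie2. On chromosome 1, 4 fell between 84962821 and 85148357, near Slc16a14 and A530032D15Rik. On chromosome 5, 3 fell between 14971225 and 15644542 at Speer4d and the gene models Gm10354 and Gm21190, and on chromosome 4, 2 fell between 146166994 and 146444989 at the zinc finger genes Zfp600 and Zfp992. The remaining pairs lay at Zfp640 on chromosome 13 and by Psmg3 and Ttyh3 on chromosome 5. Inside Zfp600 the region (chromosome 4, 146166994 to 146168498) measured 1503, 476 and 1457 bp in the CT26 distal libraries and had no peak in the 4T1 niche. Outside the stretches, CT26-only regions lay for instance in Rasgrf2, a Ras exchange factor (chromosome 13, 91908159 to 91908957; 581, 218 and 336 bp), which no niche library held, and in Efnb2, the membrane ligand ephrin-B2 (chromosome 8, 8623735 to 8624402; 622, 282 and 586 bp), which all 3 CT26 niche libraries and some 4T1 niche libraries held.

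Sequence copies were frequent among the genes nearest to the CT26-only regions. RefSeq lists a window from 250 bases before to 50 after the start for 29 of these 35 genes. In 9 of the 29 (31.0%), over 50% of the window's 25-base words occur at another place in the windows of the table, against 4.85% of the 26794 genes with a window. The window of Gm15319, a gene model in the chromosome 8 stretch, occurs letter for letter in 3 windows. It is shown because reads from such copies cannot be placed by sequence alone. No library had a peak in the window itself.

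Gm15319, chr8:20363153-20363452, minus strand: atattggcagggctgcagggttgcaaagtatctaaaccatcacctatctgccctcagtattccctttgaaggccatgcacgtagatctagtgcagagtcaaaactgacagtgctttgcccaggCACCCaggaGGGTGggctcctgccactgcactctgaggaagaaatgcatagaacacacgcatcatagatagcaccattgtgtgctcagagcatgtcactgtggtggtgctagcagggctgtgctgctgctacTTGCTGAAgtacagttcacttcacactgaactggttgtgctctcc

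The window of 4930467E23Rik, also on chromosome 8, has the same letters at all 300 places, and the window of Rex2 on chromosome 4 has the same letter as that of Zfp600 at 296 of 300 places. How reads that match several places were handled is not given in the sources used here, and the part of such reads in these calls was not tested.

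Promoter windows seldom differed. Of 32619 RefSeq windows (GRCm38.p6), 98 (0.3%) were touched by a peak in all 3 4T1 distal libraries and in no CT26 distal library, and 3 (0.0092%) the other way round. All 3 CT26 niche libraries had a peak at 34 of the 98 and at least 1 at 86. One of the windows of Pparg, the nuclear receptor PPAR gamma that controls lipid genes, was covered for 98, 138 and 98 bases in the 4T1 distal libraries (chromosome 6, 115421816 to 115422115). A window of Tnfsf13b, the B cell factor BAFF, was covered for 300, 300 and 257 bases and had a peak in all 6 niche libraries (chromosome 8, 10006383 to 10006682). A window of H2-DMb2, which helps load peptides onto MHC class II, was covered for 300, 224 and 300 bases, in all 3 4T1 niche libraries and in 1 of the CT26 niche (chromosome 17, 34144999 to 34145298).

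The next windows are shown as examples of these calls, and not all are among the clearest. The window of 1700055D16Rik, covered for all 300 bases in each CT26 distal and each 4T1 niche library, is not shown. They were chosen after the values were seen, since the first-ranked loci below had no entry in the table or no peak in their windows. Those of Dlg1 (a scaffold protein of cell junctions), Rab17 (a small GTPase of epithelial trafficking) and Tmem184a had a peak in all 6 4T1 libraries, distal and niche, and in no CT26 library. Dlg1 was covered for 257, 273 and 280 bases in the 4T1 distal libraries, Rab17 for 245, 254 and 194, and Tmem184a for all 300 in each. The window of the gene model Gm26885 was covered for all 300 bases in each CT26 distal library and had no peak in the other 9. It lies in no CT26-only region, since chromosome 17 holds none. The merged region there thus also has a 4T1 distal peak, outside the window. The window of the zinc finger gene Zfp804a was covered for 190, 169 and 300 bases in the CT26 distal libraries and not in the 4T1 distal ones, and all 6 niche libraries covered it too. Capitals mark matches to the motifs named after the sequences.

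Dlg1, chr16:31695298-31695597, plus strand: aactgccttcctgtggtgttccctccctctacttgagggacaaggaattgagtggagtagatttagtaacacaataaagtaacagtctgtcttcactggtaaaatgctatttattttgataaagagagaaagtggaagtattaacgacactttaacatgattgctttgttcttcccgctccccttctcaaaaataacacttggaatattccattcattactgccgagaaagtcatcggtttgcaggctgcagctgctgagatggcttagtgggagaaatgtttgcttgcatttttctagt

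Rab17, chr1:90967618-90967917, minus strand: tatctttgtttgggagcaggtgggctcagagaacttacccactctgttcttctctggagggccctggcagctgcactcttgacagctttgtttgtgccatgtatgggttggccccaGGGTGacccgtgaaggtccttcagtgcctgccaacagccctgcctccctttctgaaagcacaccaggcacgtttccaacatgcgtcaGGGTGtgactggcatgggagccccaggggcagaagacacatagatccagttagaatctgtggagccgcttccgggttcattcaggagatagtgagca

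Tmem184a, chr5:139813194-139813493, minus strand: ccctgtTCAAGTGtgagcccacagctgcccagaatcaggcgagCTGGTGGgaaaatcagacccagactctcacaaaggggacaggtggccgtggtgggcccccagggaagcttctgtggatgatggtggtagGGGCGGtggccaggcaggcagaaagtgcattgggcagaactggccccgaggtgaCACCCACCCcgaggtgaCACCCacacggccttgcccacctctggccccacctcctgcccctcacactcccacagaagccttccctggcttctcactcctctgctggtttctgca

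Gm26885, chr17:29491495-29491794, minus strand: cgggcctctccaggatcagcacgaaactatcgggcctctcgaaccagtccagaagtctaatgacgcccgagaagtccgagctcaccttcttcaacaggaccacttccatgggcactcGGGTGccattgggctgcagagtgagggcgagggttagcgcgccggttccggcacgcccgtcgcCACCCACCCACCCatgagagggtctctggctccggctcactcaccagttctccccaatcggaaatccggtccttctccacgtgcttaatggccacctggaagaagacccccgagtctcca

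Zfp804a, chr2:82053408-82053707, plus strand: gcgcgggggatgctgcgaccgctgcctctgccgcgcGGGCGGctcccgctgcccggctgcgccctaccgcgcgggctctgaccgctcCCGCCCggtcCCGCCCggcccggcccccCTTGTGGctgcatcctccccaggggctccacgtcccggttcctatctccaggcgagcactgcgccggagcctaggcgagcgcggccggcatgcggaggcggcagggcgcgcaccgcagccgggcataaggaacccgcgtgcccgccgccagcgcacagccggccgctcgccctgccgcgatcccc

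These sequences differ in composition, with 40.3% G and C in Dlg1, 55.7% in Rab17, 63.0% in Tmem184a, 61.7% in Gm26885 and 79.3% in Zfp804a. Matches were searched on both strands, and none of the 5 shares a 25-base word with another window. The GC box GGGCGG, found in 35.9% of all windows, matched 3 times in Zfp804a and once in Tmem184a. CACCC, found in 57.7% of windows, matched 4 times in Gm26885, 3 times in Tmem184a and 2 times in Rab17. The CTCF core CCACNAG (15.1% of windows) matched once in Zfp804a and once in Tmem184a. The lung and thyroid factor motif of NKX2-1, CACTTGA (3.08% of windows), matched once in Tmem184a, starting at -244 from the gene start. The Gm15319 window matched TTGCNNAA of C/EBP (10.9% of windows) once and CACCC 2 times. AP-1 (TGANTCA, 7.85%), CRE (TGACGTCA, 1.80%), STAT (TTCNNNGAA, 8.34%), the interferon element core (GAAANNGAA, 8.53%) and TEAD (GGAATG, 14.6%) matched in none of the 6, which says only that these letters are not in these windows.

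At gene loci few differences passed the test. The loci lower in CT26 distal cells included 2 interferon-induced GTPase genes, Iigp1 and Gbp8, and those higher included the zinc finger gene Zfp992. Length under peaks was summed over each protein-coding gene with 10 kb on both sides, scaled to the mean covered length of the 6 libraries, and tested as log2(bp + 500) with limma. Of 16283 loci, 10 (0.0614%) had a Benjamini-Hochberg adjusted p under 0.05, of which 3 rose and 7 fell in CT26. Without adjustment, 3198 loci were higher (19.6%) and 1048 lower (6.44%) at p under 0.05. The calls are fragile. Leaving out any 1 of the 4T1 libraries, or CT26 replicate 2 or 3, left 0 loci past the threshold by limma (with 1895 to 2946 higher and 726 to 1151 lower at an unadjusted p under 0.05), and leaving out CT26 replicate 1 left 3. Part of this loss was fixed in advance by the filter of a peak in at least 3 libraries. Of the 10 loci, 6 were still tested without a 4T1 library and 8 without a CT26 library. The balance follows the scaling: without scaling 22 loci were higher and 3952 lower, and the median difference of all loci moved from 0.083 to -0.24 on the log2 scale. Centred on the median locus, 9 were higher and 72 lower. With only peaks of -log10 q of at least 5, 4233 were higher and 855 lower.

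**Figure D4:**
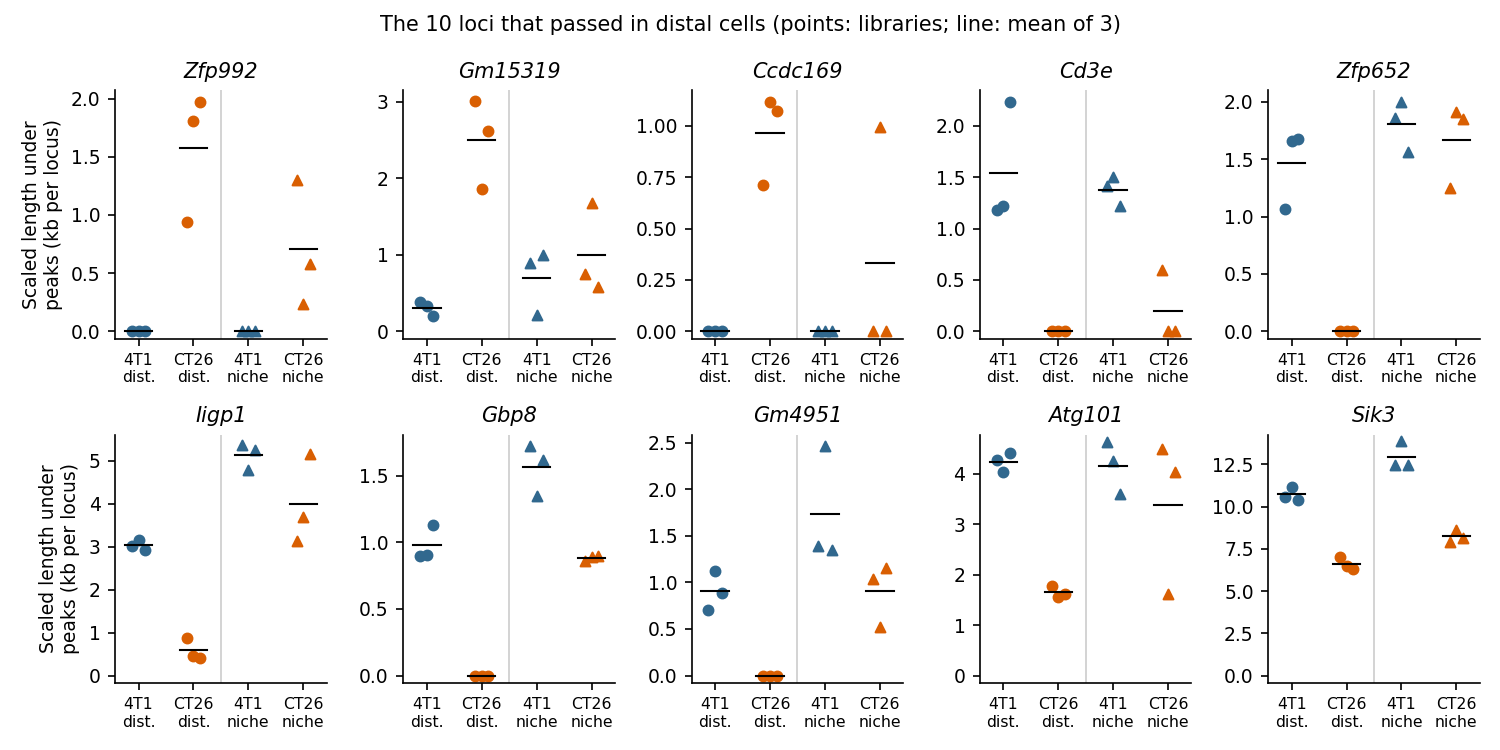
Scaled length under peaks (kb per locus) in each library for the 10 loci that passed, with circles for distal and triangles for niche libraries and a line for the mean of 3; distal and niche values were scaled separately. The distal groups do not overlap at any of the 10, while at Zfp652, Iigp1, Atg101, Gm15319 and Ccdc169 the niche groups do.

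Iigp1 and Gbp8 fell in CT26 distal cells, and both are GTPases that interferon induces against intracellular pathogens. The Iigp1 locus on chromosome 18 held 3.01, 3.15 and 2.93 kb in 4T1 and 0.884, 0.449 and 0.417 kb in CT26. Every CT26 library lay below every 4T1 library (log2 difference -1.73 ± 0.16 SE, limma adjusted p = 0.032). In the niche the lengths were 5.36, 4.78 and 5.24 kb in 4T1 and 3.14, 3.69 and 5.14 kb in CT26, so the groups overlapped. Gbp8 (chromosome 5, 105012513 to 105053609) held 0.900, 0.901 and 1.13 kb in 4T1, and all 3 CT26 distal libraries are listed at 0 (-1.56 ± 0.14, limma adjusted p = 0.032). Gbp8 held 1.72, 1.35 and 1.62 kb in the 4T1 niche and 0.859, 0.890 and 0.900 kb in the CT26 niche. The locus has 2 regions, both 4T1-only. The longer covers the end of the gene (chromosome 5, 105053264 to 105054293) and was held by all 6 niche libraries. The shorter (105056513 to 105056817) was held by all 3 4T1 niche libraries and no CT26 niche library. Gm4951, a gene model next to Iigp1 that was named after its values were seen, held 0.706, 1.12 and 0.889 kb in 4T1 and is listed at 0 in CT26 distal cells (-1.48 ± 0.16, limma adjusted p = 0.0498). Where a group is listed at 0 no fold is given, and the fitted difference depends on the 500 bp added. Such a group also adds no spread, so its p can be too small. Of the 10 loci that passed, 6 (Gbp8, Gm4951, Cd3e, Zfp652, Zfp992 and Ccdc169) had a peak in the 3 libraries of one group alone. They met the filter of 3 libraries only through the group where they are high, as did 66 of the 16283 loci tested.

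Cd3e and Zfp652 also fell, with 4T1-only regions outside the genes. Cd3e encodes a chain of the T cell receptor complex (chromosome 9, 44998735 to 45009663). The locus held 1.18, 1.22 and 2.23 kb in 4T1 and is listed at 0 in every CT26 distal library (-1.99 ± 0.20, limma adjusted p = 0.046). Of its 3 regions 1 was 4T1-only, 6606 bp outside the gene (chromosome 9, 45016269 to 45018034). Of other lymphoid loci, Cd3d, Cd8a and Ptprc had no peak in any distal library, while Cd4, Lck and Gata3 had peaks in all 6. The summed length of the 14 lymphoid loci was 13.0 to 13.9 kb in 4T1 and 11.8 to 14.2 kb in CT26, and the part of T cells in the Cd3e value was not tested. In bulk nuclei, a change in the mixture of cells and a change within cells cannot be told apart. Zfp652, a zinc finger repressor gene (chromosome 11, 95749067 to 95764715), held 1.07, 1.66 and 1.68 kb in 4T1 and is listed at 0 in CT26 distal cells (-1.96 ± 0.16, limma adjusted p = 0.032). Of its 3 regions 2 were 4T1-only, the longer of them 6099 bp outside the gene (chromosome 11, 95770814 to 95771919). All 6 niche libraries held that region, with 1.25 to 2.00 kb at the locus in both models.

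Atg101 and Sik3 fell while keeping peaks in every library. Sik3 encodes a salt-inducible kinase (chromosome 9, 46012820 to 46224194). Its locus held 10.6, 11.2 and 10.4 kb in 4T1 distal cells and 7.00, 6.47 and 6.28 kb in CT26 (-0.66 ± 0.068, limma adjusted p = 0.046). The niche gave nearly the same difference, with 12.5, 13.9 and 12.5 kb against 7.93, 8.60 and 8.16 kb (-0.62 ± 0.066, limma adjusted p = 0.025). Sik3 was the only locus called in both sites. Atg101, a subunit of the complex that starts autophagy (chromosome 15, 101284301 to 101290947), held 4.27, 4.03 and 4.41 kb in 4T1 and 1.78, 1.55 and 1.61 kb in CT26 (-1.14 ± 0.076, limma adjusted p = 0.019). The region that differed most lies 6820 bp outside Atg101, at the end of Nr4a1, an immediate early nuclear receptor gene (chromosome 15, 101273748 to 101277481). With only peaks of -log10 q of at least 5 the direction at Atg101 turned, to 0.35 (limma adjusted p = 0.023).

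Of the 3 loci that rose in CT26 distal cells, Zfp992 and Gm15319 lie at the stretches of chromosomes 4 and 8 described above, and Ccdc169 does not. Zfp992, a zinc finger gene of the chromosome 4 stretch (146449030 to 146469440), is listed at 0 in the 4T1 distal libraries and held 0.940, 1.81 and 1.97 kb in CT26 (2.01 ± 0.21, limma adjusted p = 0.046). It is listed at 0 in the 4T1 niche as well and held 1.30, 0.233 and 0.579 kb in the CT26 niche. Of its 6 regions 1 was CT26-only, 4041 bp outside the gene (chromosome 4, 146443436 to 146444989), and no niche library held that region itself. Gm15319, named after its values were seen, held 0.380, 0.333 and 0.205 kb in 4T1 and 3.01, 1.86 and 2.62 kb in CT26 (1.88 ± 0.16, limma adjusted p = 0.032). In the niche its groups overlapped. Ccdc169 (chromosome 3, 55137339 to 55175250), a coiled-coil gene, is listed at 0 in 4T1 and held 0.712, 1.12 and 1.07 kb in CT26 (1.54 ± 0.16, limma adjusted p = 0.046), from a region inside the gene. In the niche 1 CT26 library held that region.

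Several of these calls rest on weaker peaks. With only peaks of -log10 q of at least 5, Zfp992 and Ccdc169 kept a peak in 0 of 6 libraries, Cd3e and Zfp652 in 1 and Gbp8 in 2, and none of these 5 could be tested. Iigp1 passed there (-1.41, limma adjusted p = 0.032), as did 33.7% of all loci tested in that setting. It kept a peak in 3 4T1 and 0 CT26 distal libraries, so it met the filter only through the group where it is high. Sik3 kept its direction (-0.57, limma adjusted p = 0.089). With every list shortened to 42067 peaks, Zfp992, Ccdc169, Cd3e, Zfp652 and Gbp8 kept a peak in 1, 2, 1, 2 and 2 libraries. Iigp1, Atg101 and Sik3 could be tested in that setting and kept their direction (-0.92, -0.35 and -0.27), without passing (limma adjusted p = 0.44, 0.74 and 0.43).

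The difference between the models was itself tested between distal and niche cells, in 1 limma fit over the 12 libraries. It differed at 10 of 16819 loci (0.0595%). Gbp8 (-1.07 ± 0.14, limma adjusted p = 0.022) and Zfp652 (-1.96 ± 0.22, limma adjusted p = 0.022) were lower by more in CT26 distal cells than in the CT26 niche. Nkx6-2, a homeobox gene (chromosome 7, 139579376 to 139582797), is listed at 0 in 4T1 distal cells and held 0.650, 0.557 and 0.484 kb in CT26 distal cells, while its niche groups overlapped (1.31 ± 0.19, limma adjusted p = 0.043). At Lsp1, Zfp469, Mb, Ccl2, Apod and 1700013G24Rik the models differed past the test in the niche (lower in CT26) and not in distal cells. The last was LOC115486128, at -0.70 in distal cells and 0.045 in the niche. The count depended on single libraries: it was 0 without 4T1 distal replicate 3, without any 1 of the 4T1 niche libraries or without CT26 niche replicate 2 (limma, 629 to 756 loci higher and 619 to 739 lower at an unadjusted p under 0.05), and 18 without CT26 distal replicate 3. The chemokine gene Ccl2, for instance, is listed at 0 in all 6 distal libraries and in the CT26 niche, with 1.39, 1.09 and 0.936 kb in the 4T1 niche. For Iigp1 the interaction was -1.42 ± 0.24 and did not pass (limma adjusted p = 0.063), nor did it at Cd3e, Sik3, Atg101, Zfp992 or Ccdc169 (adjusted p = 0.54 to 0.94). Within the niche alone 77 of 16662 loci passed between the models (0.462%), 3 higher and 74 lower in CT26. Across the 16237 loci tested in both sites the 2 differences had the same sign at 70.3%. Their Pearson correlation over loci was 0.42 and Spearman's rho 0.41, a description, since loci are not independent and the libraries of a model may share their preparation.

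Interferon-induced gene families were examined as a whole, a choice made after Iigp1 and Gbp8 were seen. Of the 41 Gbp, Ifit, Ifitm, Irg, Tgtp and Oas loci, 35 could be tested. At an unadjusted p under 0.05, 13 of the 35 were lower in CT26 distal cells and 1 was higher, against 6.44% and 19.6% of all loci. The 3 that passed the adjusted test are Iigp1, Gbp8 and Gm4951, and Iigp1 and Gbp8 prompted the choice. Without these 3, 10 of 32 were lower and 1 was higher, with a median of -0.16, and the sums were 51.8, 56.8 and 54.3 kb in 4T1 and 45.6, 50.9 and 49.2 kb in CT26, a setting added after the data were seen. The median difference over the 35 was -0.18, against 0.083 over all loci, and -0.013 in the niche. Summed over the 41 loci the scaled length was 56.5, 62.0 and 59.3 kb in 4T1 and 46.5, 51.4 and 49.6 kb in CT26, without overlap. These sums include the 3 loci that passed and count a shared region at each of its loci. Neighbouring members share regions, so they are not independent, and Oas3 and Oas1e have the same distal lengths. Oas3, Oas1e and Gbp10, all among the 10 lower of 32, are listed at 0 in every CT26 distal library. These loci met the filter only through the group where they are high. They are part of the sums with and without the 3 that passed. Whether the groups stay apart without them was not tested.

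The medians of the families are given without a test between them. The Irg and Tgtp loci, immunity-related GTPases, had the lowest median (-0.47 over 7 loci), with 4 lower at an unadjusted p under 0.05, and their niche median was -0.68. The Oas loci, sensors of double-stranded RNA, had a median of -0.35 over 8 tested, and their niche median was 0.028. The distal medians of the Ifit, Ifitm and Gbp loci were -0.18, -0.14 and 0.014. Their niche medians were 0.13, 0.18 and -0.14. At Oas3 the 4T1 distal libraries held 0.859, 0.677 and 0.596 kb and the CT26 distal libraries are listed at 0, which did not pass (-1.27 ± 0.16, limma adjusted p = 0.057). Gbp10 held 0.422, 0.738 and 1.27 kb in 4T1 and is listed at 0 in CT26 distal cells (limma adjusted p = 0.11). At Ifit2, which binds viral RNA, the lengths were 3.04, 3.51 and 3.70 kb against 2.74, 2.27 and 2.31 kb (-0.41 ± 0.10, limma adjusted p = 0.11). Gbp2b, the member higher at an unadjusted p under 0.05, held 1.42, 1.42 and 1.52 kb in 4T1 and 1.91, 1.98 and 1.73 kb in CT26 without overlap (0.28 ± 0.074, limma adjusted p = 0.11). The guanylate-binding protein genes Gbp2, Gbp3, Gbp5 and Gbp9 were also higher in CT26, by 0.10 to 0.20, none past the adjusted test (limma adjusted p = 0.29 to 0.61). Gbp4 (-0.29), Gbp6 (-0.26) and Gbp7 (-0.071) were lower in CT26 without passing (limma adjusted p = 0.22, 0.20 and 0.71). The macrophage marker Itgam, named here beside these loci, held between 1.2 and 1.71 kb in the 4T1 distal libraries and 0, 0.592 and 0 kb in the CT26 distal libraries. It is the 1 locus lower at an unadjusted p under 0.05 among the 9 tested macrophage and monocyte loci, with 0 higher. Of the 9 differences 6 were positive, with a median of 0.052. Itgam is also part of the sums that follow. The summed length of the 14 macrophage and monocyte loci was 17.9 to 18.6 kb in 4T1 and as low as 16.0 kb in CT26, with 2 CT26 libraries above the lowest 4T1 library, and its part in the interferon loci was not tested.

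**Figure D5:**
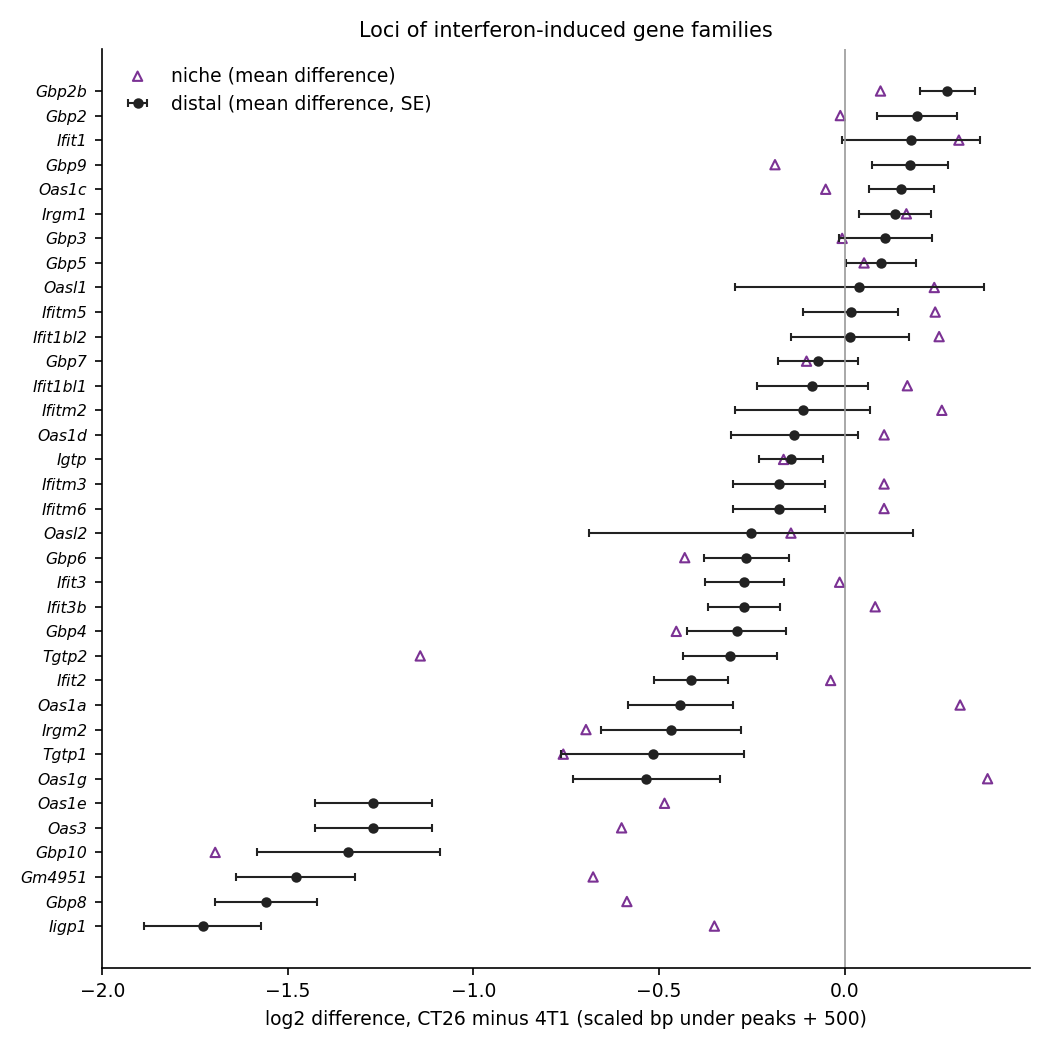
Log2 difference CT26 minus 4T1 in scaled length under peaks (bp + 500) for the 35 tested loci of interferon-induced families, with filled circles and SE bars for distal cells and open triangles for the niche. Iigp1, Gbp8, Gm4951 and Gbp10 lie at the lower left in distal cells, and most Gbp loci on the right lie near 0.

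No AT2 identity locus passed the test in the 6-library fit with scaling. Of the 24, 0 passed in either direction by limma, and the median was -0.064. At an unadjusted p under 0.05, 4 were higher and 3 lower, against 19.6% and 6.44% of all loci. Sftpc, the gene of surfactant protein C, held 5.93, 6.29 and 5.23 kb in 4T1 and 6.49, 6.40 and 5.86 kb in CT26, and the groups overlapped (0.098 ± 0.086, limma adjusted p = 0.50). Nkx2-1, the lineage factor of lung epithelium, held 3.97, 4.37 and 3.88 kb against 4.82, 4.74 and 4.56 kb without overlap (0.19 ± 0.073, limma adjusted p = 0.17). Cebpa, a factor of AT2 differentiation, held 5.44, 5.99 and 4.97 kb against 6.22, 7.52 and 6.83 kb (0.30 ± 0.097, limma adjusted p = 0.13). The differences at Sftpb (0.18), Sftpa1 (-0.11), Sftpd (0.023), Abca3 (-0.11), Lamp3 (-0.17) and Etv5 (-0.11) had adjusted p of 0.21 to 0.96 by limma. The alveolar type I genes Hopx (-0.0037) and Ager (0.17) did not pass either. Gapdh, a housekeeping gene, held 2.31, 2.29 and 2.39 kb against 2.86, 3.03 and 2.89 kb (0.27 ± 0.066, limma adjusted p = 0.11), so a difference of this size in scaled length also appears at a control locus. Without scaling, Sftpc (-0.28), Sftpb (-0.19), Sftpd (-0.34), Nkx2-1 (-0.18), Cebpa (-0.080), Ager (-0.19) and Gapdh (-0.074) turned. Some AT2 loci passed in other settings. With only peaks of -log10 q of at least 5, Sftpb was at -0.80, Abca3 at 0.32 and Lamp3 at 0.37 (limma adjusted p = 0.012, 0.034 and 0.027). In that setting 33.7% of all loci passed. Without scaling, Sftpa1 was at -0.45, Abca3 at -0.49 and Lamp3 at -0.54 (limma adjusted p = 0.038, 0.038 and 0.040), where 24.4% of all loci passed. In the 12-library fit 2 of the 24 were lower past the test, as were 276 of all 16819 loci.

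Of the 466 tested members of the 33 gene lists, 3 passed, against 10 of all 16283 loci (0.0614%). They were Iigp1 and Gbp8 of the interferon response list and Cd3e of the lymphoid list. Gbp8 and Cd3e are listed at 0 in every CT26 distal library and met the filter only through the 4T1 group. In the interferon response list 6 of 28 tested loci were lower and 0 higher by limma at an unadjusted p under 0.05, against 6.44% and 19.6% of all loci. The 6 include Iigp1 and Gbp8. The median of the list was -0.023, and 14 of the 28 differences were positive. Its summed length was 55.1, 58.0 and 55.6 kb in 4T1 and 50.3, 52.4 and 53.2 kb in CT26. These sums include Iigp1 and Gbp8, already known to be lower, so they are no separate evidence. Whether the groups stay apart without these loci was not tested. In the cell cycle list 5 of 19 loci were higher at an unadjusted p under 0.05, near the 19.6% of all loci, with 0 passed by limma, a median of 0.20, and sums of 34.8 to 37.2 kb in 4T1 and 38.3 to 41.2 kb in CT26. Of the 16 widely expressed control genes 5 were higher and 1 lower by the same measure, with a median of 0.15. The AP-1 list summed to 73.4 to 74.0 kb in 4T1 and 74.6 to 80.1 kb in CT26, and the stem and progenitor list to 46.1 to 48.1 kb and 38.8 to 45.3 kb. Sums without overlap were not particular to the lists named here. The YAP and TEAD list, for instance, held 63.8 to 68.6 kb against 60.9 to 62.5 kb. The basal cell list held 5.66 to 6.47 kb against 7.28 to 7.80 kb. MHC class II loci had a median of -0.14, with 2 of 7 lower and 0 higher at an unadjusted p under 0.05, against 6.44% and 19.6% of all loci. Of the 7 differences 3 were positive, and the sums overlapped, with 23.8 to 27.9 kb in 4T1 and 23.8 to 26.2 kb in CT26.

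Regions of the TGF-beta and EMT list were often 4T1-only, a count that did not outlast equal list lengths. TGF-beta signals through receptors Tgfbr1 and Tgfbr2 to Smad3, with Smad6 and Smad7 as inhibitors, and Snai1 and Zeb1 are repressors of epithelial genes. Of the 101 regions at these 20 loci, 12 were 4T1-only (11.9%, against 3.44% of all regions), spread over 8 loci, whereas 11.2% of tested loci hold such a region. Among them were 3 regions at Smad3, 2 each at Tgfbr2 and Zeb1, and 1 each at Tgfb3, Smad6, Snai1 and Itgb1. A region inside Tgfb3, for instance (chromosome 12, 86068170 to 86069381), measured 1068, 929 and 1126 bp in the 4T1 distal libraries and was held by all 3 4T1 niche libraries and 1 CT26 niche library. With every list shortened to 42067 peaks 1 of the 101 was 4T1-only (0.99%, against 0.85% of all regions), and with a -log10 q of at least 5, 5 were (4.95%, against 5.12% of all regions). Both settings were added after the data were seen. By summed length the list held 59.4 to 62.4 kb in 4T1 and 56.0 to 59.9 kb in CT26. Of 19 tested loci 0 passed the adjusted limma test. At an unadjusted p under 0.05, 2 were higher and 2 lower, against 19.6% and 6.44% of all loci. The Notch pathway list held 7 4T1-only regions of 99 (7.07%, against 3.44% of all regions), at Maml2, Notch2, Notch3 and Rbpj. It held 8 (8.08%, against 5.12%) with -log10 q of at least 5 and 1 (1.01%, against 0.85%) with equal list lengths.

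Pooling the spread of all 12 libraries gave more calls between the distal groups. In this fit 845 of 16819 loci passed (5.02%), 569 higher and 276 lower in CT26. The loci below were ranked in this fit after its values were seen. Itgam (-1.70 ± 0.35, limma adjusted p = 0.040), H2-Oa, which limits peptide loading onto MHC class II (-1.68 ± 0.35, limma adjusted p = 0.040), and Fam78a (-1.67 ± 0.34, limma adjusted p = 0.040) were among the largest falls. Fam78a is listed at 0 in every CT26 distal library. H2-Oa held 1.74, 2.20 and 0.777 kb in 4T1 distal cells and 0.577, 0 and 0 kb in CT26, and its niche groups did not overlap either. Nr5a1, the steroidogenic nuclear receptor gene, held 3.32, 2.11 and 2.89 kb against 0.715, 0.412 and 0.805 kb, while its niche groups overlapped. Ccn4, a matricellular Wnt target, held 1.69, 1.28 and 1.68 kb against 0.308, 0 and 0.553 kb. Among the rises, Zfp600 held 0.369, 0 and 0 kb against 3.38, 1.62 and 2.68 kb (2.39 ± 0.36, limma adjusted p = 0.021). Spin2f and Zfp981 are listed at 0 in the 4T1 distal and in all niche libraries, and Spin2f held 0.640, 0.495 and 0.911 kb in CT26 distal cells. Frzb, a secreted Wnt antagonist, held 0.314, 0.415 and 0 kb against 1.01, 1.16 and 1.72 kb (1.36 ± 0.23, limma adjusted p = 0.028). The niche groups of Frzb overlapped.

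Region by region, more calls were made than at loci, but none without any 1 of the 4T1 libraries. Of 53007 regions with a peak in at least 3 libraries, 6305 (11.9%) passed limma on log2(scaled bp + 200), 3543 longer and 2762 shorter in CT26. The 2405 4T1-only and 38 CT26-only regions met this filter only through the group that holds them, and the other group adds no spread. Leaving out any 1 of the 4T1 libraries left 0 regions past the test (with 6933 to 8945 longer and 1192 to 1324 shorter at an unadjusted p under 0.05). The 4T1-only regions then fell below the filter, with 48692 to 49166 regions tested, so their loss was fixed in advance. Leaving out CT26 replicate 2 left 30 longer and 632 shorter.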

How the data were processed

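Omni-ATAC libraries of sorted AT2 cells were compared, although the labels give total RNA as the molecule. Each library has its own file of broad peaks, as the authors deposited it. Per the submitters' processing notes, MACS2 and bedtools were used with build GRCm38, while no aligner, filter, setting or handling of reads with several matches was given in the sources used here. From the deposited files, peak positions (bp), fold enrichment (a ratio over background), -log10 p and -log10 q were read. No counts are in the files, so depth is unknown and no counting interval was computed. Nothing shows that the lists were pooled.

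Peaks off the 19 autosomes and X were dropped. Regions are peaks of the 6 distal libraries merged at an overlap of at least 1 bp. Loci are 21627 RefSeq protein-coding genes with 10 kb on both sides. Summed lengths were scaled to the mean covered length, 500 bp (loci) or 200 bp (regions) were added, and features covered in 3 or more libraries were fitted with limma 3.58.1 (R 4.3.3; lmFit, eBayes with trend, Benjamini-Hochberg). Single library values were compared by exact permutation tests. Scripts were tested on simulated data. Named loci are the up to 10 largest rises and falls that passed without overlap between groups, list members that passed, and 12 fixed genes; gene models were left out and are named as exceptions. The members and lists were chosen with earlier results of these data known. The labels call the samples independent pools of 5 lungs, so p-values measure the spread between pools. Of 514 listed symbols 512 matched and 466 were tested. Promoter windows and their sequences are RefSeq's (GRCm38.p6). Replicate numbers did not pair samples (correlations of same-numbered deviations -0.099 to 0.034). Alternatives in scaling, threshold, list length, flank, added length, filter and replicates were tried. A few single loci are not reported here.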

Additional observations from a re-analysis of the deposited data

Results flagged for a closer look

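At 3 named loci the difference between CT26 and 4T1 was not the same in distal and niche cells, by the limma test of that difference over 12 libraries. At Zfp652 it was -1.96 on the log2 scale, with every CT26 distal library listed at 0 and 1.25, 1.91 and 1.85 kb in the CT26 niche. At Gbp8 it was -1.07, with every CT26 distal library listed at 0 and 0.859 to 0.900 kb in the CT26 niche. At Nkx6-2 it was 1.31, with every 4T1 distal library listed at 0 and 0.652 to 0.861 kb in the 4T1 niche. At each of them the group that stands apart is a distal group without a peak, the distal lists are shorter than the niche lists of the same model, and the part of list length was not tested. Groups of 3 were not tested for outlying libraries.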

How the results depend on the processing

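The differences in peaks per library, length under peaks, median peak length and share near gene ends kept their direction under every alternative tried. Counts of calls did not. CT26-only regions numbered 4 with -log10 q of at least 5 and 325 with every list shortened to 42067 peaks, and 57 to 243 without one library. 4T1-only regions numbered 594 with 42067 peaks each, 3645 where peaks had to cover the greater part of a region, and 2984 to 4296 without one library. Loci higher and lower in CT26 distal cells, 3 and 7 as reported, numbered 4233 and 855 with -log10 q of at least 5, 22 and 3952 without scaling, 9 and 72 centred on the median locus, 0 and 1 with 2 kb flanks, 20 and 21 with 50 kb flanks, 569 and 276 in the 12-library fit, and 10 and 33 without the trend. With 42067 peaks each 10 were higher, with 100 bp added 3 were lower and with 2 kb added 4 were lower. Without one library 0 were higher and 0 to 3 lower, with 6 or 8 of the 10 reported loci still meeting the filter. Regions longer and shorter numbered 144 and 228 with 42067 peaks each and 6 and 100 with a peak in at least 1 library. They numbered 10461 longer with -log10 q of at least 5 and 41 longer without scaling. Without one library 0 to 2802 were longer and 0 to 4309 shorter. Loci whose difference differed between distal and niche numbered 25 without scaling, 81 with -log10 q of at least 5 and 0 to 18 without one library, the last added after the data were seen. With the replicate number as a replicate block, 1 locus was higher and 1 lower, 0 regions were longer and 0 shorter, and 3 interaction loci passed. The numbers do not pair the samples, and not every sample correlated best with its own number. Some named loci turned. With -log10 q of at least 5, Atg101 was at 0.35, Sftpb at -0.80, Abca3 at 0.32 and Lamp3 at 0.37. With 42067 peaks each, Sftpc was at -0.047, Sftpd at -0.036, Abca3 at 0.13 and Lamp3 at 0.17. Without scaling, Sftpc was at -0.28, Sftpb at -0.19, Sftpd at -0.34, Nkx2-1 at -0.18, Cebpa at -0.080, Ager at -0.19 and Gapdh at -0.074. Centred, Sftpc was at -0.031 and Sftpd at -0.084. With 50 kb flanks, Sftpc was at -0.052, Sftpb at -0.019, Sftpa1 at 0.020 and Hopx at 0.12. Without one library, Sftpd ranged from -0.28 to 0.26, Abca3 from -0.27 to 0.023, Etv5 from -0.30 to 0.053 and Hopx from -0.14 to 0.19. The cause of these changes was not tested. The lists hold no depth, so a region missing from a library may be closed or below its detection.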
